A study of Mus musculus with 24 samples.

Results

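The left ventricle, the main pumping chamber of the heart, was compared between wild-type mice given particulate matter (PM) and wild-type mice given phosphate-buffered saline (PBS). The comparison takes 6 of the 24 arrays of the series, 3 for PM and 3 for PBS, chosen by the tissue, genotype and treatment in their labels. All 6 animals were CD-1 mice, an outbred strain, aged 20 weeks and labelled male. The PM was given at 20 mg/kg with particles of 1.9 µm, and the labels give a harvest at 36 h, worded for the lung also on the heart samples. For the PBS animals they give no time, and for neither group a route of delivery.

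The other groups used below, each of 3 arrays, are 2 left ventricle groups and 2 lung groups. The dnCREB ventricles came from CD-1 mice of the same age, given PBS or the same PM, that carry a dominant negative CREB1 under a myosin heavy chain promoter, labelled as specific to heart muscle cells. The lungs came from wild-type CD-1 mice, also of 20 weeks, given PBS or PM of the same dose, particle size and harvest time. The series text speaks of 3 animals per group, and the labels do not tie a replicate number to one animal across tissues. All levels are deposited log2 values of Affymetrix probe sets, so a difference of 1 is a doubling of signal, and each gene is read from the brightest of its probe sets, judged by the mean of all 24 arrays.

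Inhaled or instilled fine particles meet the lung first, and the heart is reached only at a distance, through particle components, inflammatory mediators, clotting factors or nerves. Well-known readouts of such exposure are acute phase and chemokine genes, aryl hydrocarbon receptor targets such as Cyp1a1, oxidant-defence genes such as Hmox1, and in heart muscle the natriuretic peptide, calcium-handling and ion channel genes that shift in stress or failure. Aquaporin-4, the gene on which the test across all genes turns here, is a water channel of brain astrocytes and of skeletal and heart muscle membranes, where it is held by the dystrophin-associated complex.

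The arrays carried the genes of ventricular muscle. Myh6, the alpha myosin heavy chain of the adult mouse ventricle, lay between 17.41 and 17.70 on the 6 arrays, and cardiac troponin T (Tnnt2) between 16.84 and 17.05. Of the atrial markers, Myl7 was at most 2.42 and Sln at most 1.93. The others were not at the floor, with Myl4 between 4.64 and 5.32 and Nppa, described below, between 12.59 and 14.18. None of 14 lung epithelial genes on the array passed the filter on low values (a log2 value above 4 on at least 3 of the 12 heart arrays), although Scgb1a1, a gene of airway club cells, was 6.30 on the second PBS array and at most 2.64 on the others. Every one of the 6 hearts had Xist, the RNA of the inactive X chromosome of females, between 12.05 and 13.05, and the Y-linked Eif2s3y between 3.14 and 3.34, against the label male. The groups did not differ in this respect. Correlations between the 6 arrays over the tested genes ran from 0.984 to 0.993. The first PBS replicate had a median correlation of 0.985 with the others, and 119 genes were over 1 log2 unit higher there than on both other PBS arrays, against 54 and 30 such genes for the other 2. Among the PM hearts the second had 134 genes over 1 log2 unit below both others, and the first had the highest value of the 6 for 3615 of the 9962 tested genes. Results that rest on the first PBS replicate are given with and without it below.

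Of 9962 genes that passed the filter, 1 differed between PM and PBS at an adjusted p under 0.05 (limma, Benjamini-Hochberg over all genes), which is 0.01% of those tested. Before adjustment, 146 genes had a p under 0.05, of which 106 were higher with PM (1.06%) and 40 lower (0.402%). That is fewer than the 498.1 that this threshold lets through by chance when no gene differs, so unadjusted p-values below are given as values only. All 3 PM arrays lay above all 3 PBS arrays for 345 genes (3.46%) and below them for 197 (1.98%). The differences were narrow. The 1st and 99th percentiles over all genes were -0.61 and 0.64, the median was 0.04, and 25 genes were over 1 log2 unit higher and 35 over 1 log2 unit lower. For 8638 genes (86.7%) the 95% interval of the difference lay wholly within 1 log2 unit of 0, so a doubling or halving lies outside the interval for most of the genes measured. The median half-width of these intervals was 0.42. With 3 arrays a group, differences within these intervals could not be told from 0 where the interval holds 0.

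The gene that passed was Aqp4, which fell with PM. Its level was 7.03, 7.07 and 6.20 on the PBS arrays and 4.75, 4.87 and 4.87 on the PM arrays. The groups did not overlap, and the third PBS heart stood below the other PBS hearts. The means were 6.77 ± 0.49 (SD, n = 3) and 4.83 ± 0.07 (SD, n = 3), a difference of -1.94 ± 0.20 (SE) with a 95% interval of -2.38 to -1.50, or a 3.83-fold lower signal (limma adjusted p = 0.0147). An exact two-sided permutation test of 3 against 3 arrays cannot go below p = 0.1, and gave 0.1.

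The call on Aqp4 rested on how the spread was estimated. Its difference is the PM mean minus the PBS mean, which the other groups in the fit do not change. In dnCREB ventricles the gene was near the floor of the arrays, at 2.55, 2.57 and 2.52 with PBS and 2.53, 2.65 and 2.70 with PM. The SDs there were 0.03 and 0.09, against 0.49 among the wild-type PBS hearts, and these 6 arrays entered the pooled spread behind the test. A fit on the 6 wild-type ventricle arrays alone therefore returned the same -1.94. It gave an unadjusted p of 0.000214 and an adjusted p of 1.00 (limma). The adjusted p was also above the threshold without the first (0.107) or second (0.0912) PBS replicate, and without the first (0.152) or the third (0.120) PM replicate, and it was 0.0512 without the first dnCREB PBS replicate. It was 3.16e-05 without the third PBS replicate, the lowest of its group, and 0.0386 without the second PM replicate, where Cox7c and Pgap1 also passed. The difference itself ran from -2.22 to -1.79 over these removals of single wild-type hearts.

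Of the 3 probe sets for Aqp4 on the array, 1 gave the values above. The others lay below the filter, at 2.37 to 3.19 and at 2.44 to 2.54, so the fall was read from a single probe set. When each of the 16693 probe sets that passed the filter was tested on its own, the adjusted p of the Aqp4 probe set was 0.0230. A second one passed there, for Bves, which encodes a cyclic AMP-binding membrane protein of heart and skeletal muscle. This probe set was low, at 4.86, 4.76 and 4.61 with PBS and 3.87, 3.57 and 3.49 with PM, a difference of -1.10 ± 0.12 (SE). The brighter Bves probe set, used for the gene, lay between 10.04 and 10.16 on all 6 arrays and differed by -0.03, so the 2 probe sets of this gene disagree.

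No other water channel passed the test. Aqp1, the water channel of the endothelium, was 10.87, 11.17 and 11.09 with PBS and 11.34, 10.95 and 12.03 with PM. Aqp7, which also passes glycerol, was 8.62, 9.71 and 10.20 with PBS and 9.05, 9.59 and 10.14 with PM, and so varied by more within each group than between the means. Aqp11 lay between 7.06 and 7.33 and Aqp8 between 3.45 and 3.52 on the 6 arrays. Aqp6, which was not on the list, was 5.67, 5.50 and 6.13 with PBS and 5.39, 5.67 and 5.62 with PM. Aqp2, Aqp3, Aqp5, Aqp9 and Aqp12 were below the filter, at most at 3.93. The proteins that anchor aquaporin-4 in muscle stayed within -0.16 (Dtna, dystrobrevin) and 0.27 (Sgca, a sarcoglycan), with dystrophin (Dmd) at 0.13 and dystroglycan (Dag1) at -0.12. Of 15 tested members of the aquaporin and anchoring list Aqp4 was the 1 called, beside 0.01% of all genes. The list was chosen with earlier results of these data known, so this count is no test of the list. Of the 15, 8 differences were above 0 and 7 below, with a median of 0.07 beside 0.04 over all genes.

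**Figure D1:**
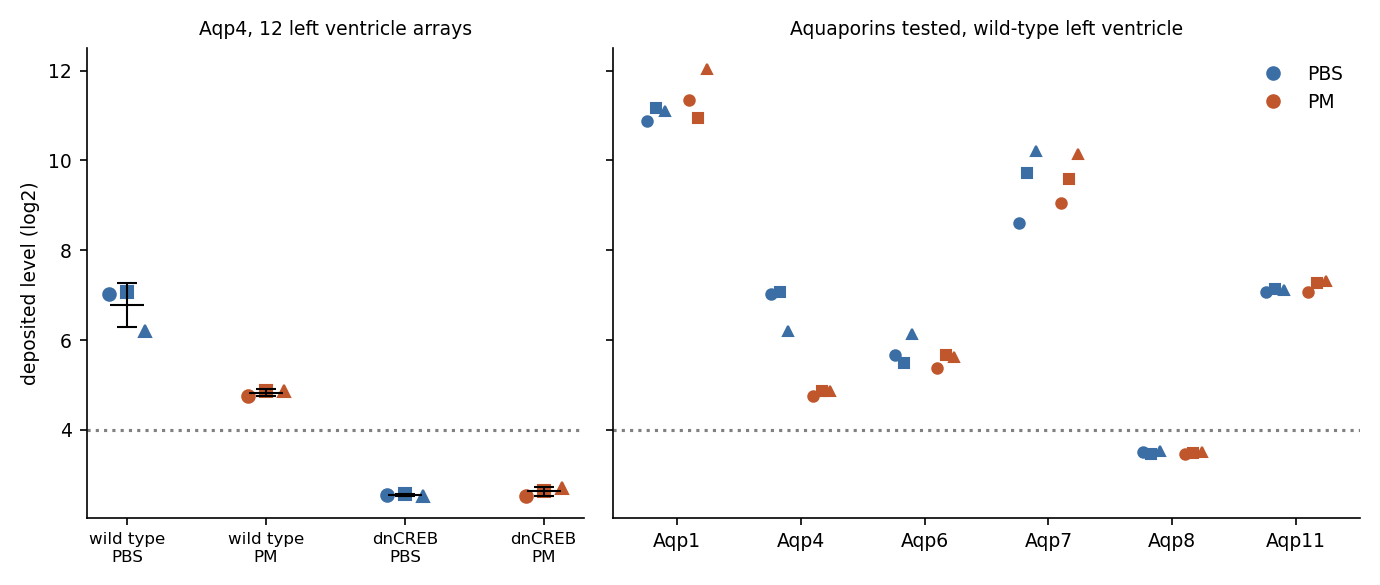
Deposited log2 levels by array. Left, Aqp4 on the 12 left ventricle arrays, with the mean and SD of each group of 3 as bars, and right, the 6 aquaporins tested in the 6 wild-type ventricle arrays (PBS blue, PM orange, 1 marker shape per replicate number). The dotted line is the filter at a log2 value of 4; Aqp4 was 6.20 to 7.07 with PBS, 4.75 to 4.87 with PM and at most 2.70 in dnCREB ventricles.

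Apart from Aqp4, the 10 largest differences in each direction among genes with an unadjusted p under 0.05 and non-overlapping groups had adjusted p-values of 1.00 (limma), so each is a value and not a call. On the higher side stood Slc16a4, a monocarboxylate transporter family member, at 4.29, 4.83 and 3.77 with PBS and 6.28, 5.54 and 5.05 with PM. Nckap5 was 4.94, 4.80 and 4.65 against 6.79, 5.62 and 5.77. Casq1, the calsequestrin of fast skeletal muscle, was 8.19, 7.91 and 8.76 against 9.71, 9.88 and 8.78, so that the third PBS and the third PM heart nearly met. The microtubule-associated Map1a was 7.42, 7.38 and 7.42 against 8.10, 9.10 and 8.35. Ptgir, the prostacyclin receptor, which relaxes vessels and restrains platelets, was 5.22, 6.23 and 5.65 against 6.51, 6.55 and 6.52. The rest of the 10 were Igsf8, Fam216a, Scrn1, Rfesd and Cenpa, with differences of 0.72 to 1.05.

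On the lower side, where Aqp4 was 1 of the 10, the largest was Baiap2l1, at 12.67, 12.93 and 12.90 with PBS and 12.46, 7.96 and 7.91 with PM. The first PM heart was thus near the PBS level and the others far below it, and the PM SD was 2.61. Apold1, an endothelial early-response gene, was 6.00, 8.46 and 6.78 against 5.51, 5.53 and 5.33. Here the PM hearts were close together and the PBS hearts spread over an SD of 1.26. Frzb, a secreted Wnt antagonist, was 7.50, 7.24 and 7.69 against 6.92, 5.39 and 6.95. Btg2, Junb and Zfp36, which belong to the immediate early genes, are described with that group, and Grk5 with the adrenergic genes. Me2, a mitochondrial malic enzyme, and Pqlc3 completed the 10, with differences of -0.99 and -0.77. The gene with the widest difference of all, Gdpd3 (chosen after its values were seen), was 3.22, 10.28 and 3.22 with PBS and 10.28 ± 0.34 (SD, n = 3) with PM. Its second PBS heart had the PM level, and its unadjusted p was 0.0873.

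The contractile apparatus was close to level. Of 19 tested sarcomere and Z-disc genes none passed the adjusted or the unadjusted threshold. Their median difference was 0.04, their range -0.16 to 0.29, and 17 had a 95% interval within 1 log2 unit. Titin (Ttn), the spring of the sarcomere, was 16.27, 16.49 and 16.31 with PBS and 16.37, 16.39 and 16.35 with PM, and cardiac myosin-binding protein C (Mybpc3) differed by 0.13. The exceptions in width were Myot (interval -1.52 to 1.20) and Myl4 (-1.82 to 2.26).

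The genes by which a stressed or failing ventricle is usually recognised did not pass either. Among 20 tested the median was 0.03, with 13 above 0 and 7 below. Nppa, the atrial natriuretic peptide that ventricles re-express under load, was 12.59, 13.99 and 13.84 with PBS and 13.49, 13.42 and 14.18 with PM. Nppb, the B-type peptide, was 12.24, 12.74 and 11.00 against 11.88, 12.12 and 11.31. For both the groups overlapped, and the intervals of the difference were -0.51 to 0.96 and -1.07 to 0.62. Myh7, the fetal beta myosin, was 12.92, 10.77 and 12.31 against 11.66, 11.01 and 14.34. A single PM heart, the third replicate, held its highest value. Skeletal alpha actin (Acta1) lay between 12.61 and 14.01 with PBS and between 12.27 and 13.62 with PM. Ankrd1, a stretch-responsive titin-binding protein, was within 14.71 and 15.16 on all 6 arrays.

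Calcium handling sets the strength and speed of each beat. Its 17 tested genes had a median difference of 0.08, and 15 had intervals within 1 log2 unit. The pump Atp2a2 (SERCA2) was 15.52, 15.69 and 15.59 with PBS and 15.65, 15.69 and 15.57 with PM. Its brake phospholamban (Pln) differed by 0.02, the release channel Ryr2 by -0.10 and cardiac calsequestrin (Casq2) by 0.04. The L-type channel subunit Cacna1c differed by 0.08 (interval -0.23 to 0.39). The sodium-calcium exchanger Slc8a1 had a wider interval, -0.93 to 1.21, with single hearts from 9.51 to 11.28. Casq1, described above, was the only member at an unadjusted p under 0.05.

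Ion channels that repolarise the ventricle had a list median close to that of all genes. In the list of potassium and pacemaker channels 20 were tested, the median was 0.02, and none had an unadjusted p under 0.05. For Kcnip2, the accessory subunit of the transient outward current, the 3 PM hearts (12.69, 12.71 and 12.73) all lay above the 3 PBS hearts (12.36, 12.50 and 12.38), a difference of 0.30 with an interval of -0.36 to 0.96. Kcnk3, a background potassium channel, was likewise apart, at 12.44, 12.55 and 12.57 against 12.72, 12.74 and 12.75. Such separation was met in 3.46% of all genes, and here in 2 of 20. The pore subunit Kcnd2 differed by 0.10, the ATP-sensitive Kcnj11 by 0.02 and Kcnq1 by 0.02. Kcna5 ranged widely among the PBS hearts, at 10.93, 8.28 and 6.53, with 8.99, 9.62 and 9.83 after PM. Its interval was -1.44 to 3.25. Connexin 43 (Gja1), which couples heart muscle cells, was 15.13, 15.64 and 15.56 against 15.62, 15.44 and 15.57. The 11 conduction genes tested had a median of -0.02 and the 6 sodium channel and pump genes one of -0.04.

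The adrenergic and the renin-angiotensin systems, which act on the heart from outside, held 1 gene each at an unadjusted p under 0.05, out of 17 and 5 tested. Both were lower with PM, as were 0.402% of all genes. Grk5, a kinase that desensitises beta-adrenergic receptors, was 11.04, 10.33 and 10.39 with PBS and 9.77, 9.18 and 10.30 with PM. The third PM heart nearly reached the PBS hearts, and the difference was -0.83 ± 0.33 (SE). The other 16 adrenergic and cyclic AMP genes tested had unadjusted p-values above 0.05, with a list median of 0.09. In the renin-angiotensin system Ace, the angiotensin-converting enzyme of vessel walls, was 8.75, 8.53 and 8.52 with PBS and 8.02, 8.22 and 8.11 with PM, a small difference of -0.48 ± 0.14 (SE) with a low spread in both groups. Agtr1a, the receptor for angiotensin II, went the other way without overlap, at 9.51, 9.47 and 9.07 against 10.17, 10.02 and 9.67, with an unadjusted p of 0.0651. Neither passed the adjustment over all genes (limma adjusted p = 1.00 for both), and groups apart were met in 1.98% of all genes on the lower and 3.46% on the higher side. Agtr2 and Mas1 were below the filter.

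**Figure D2:**
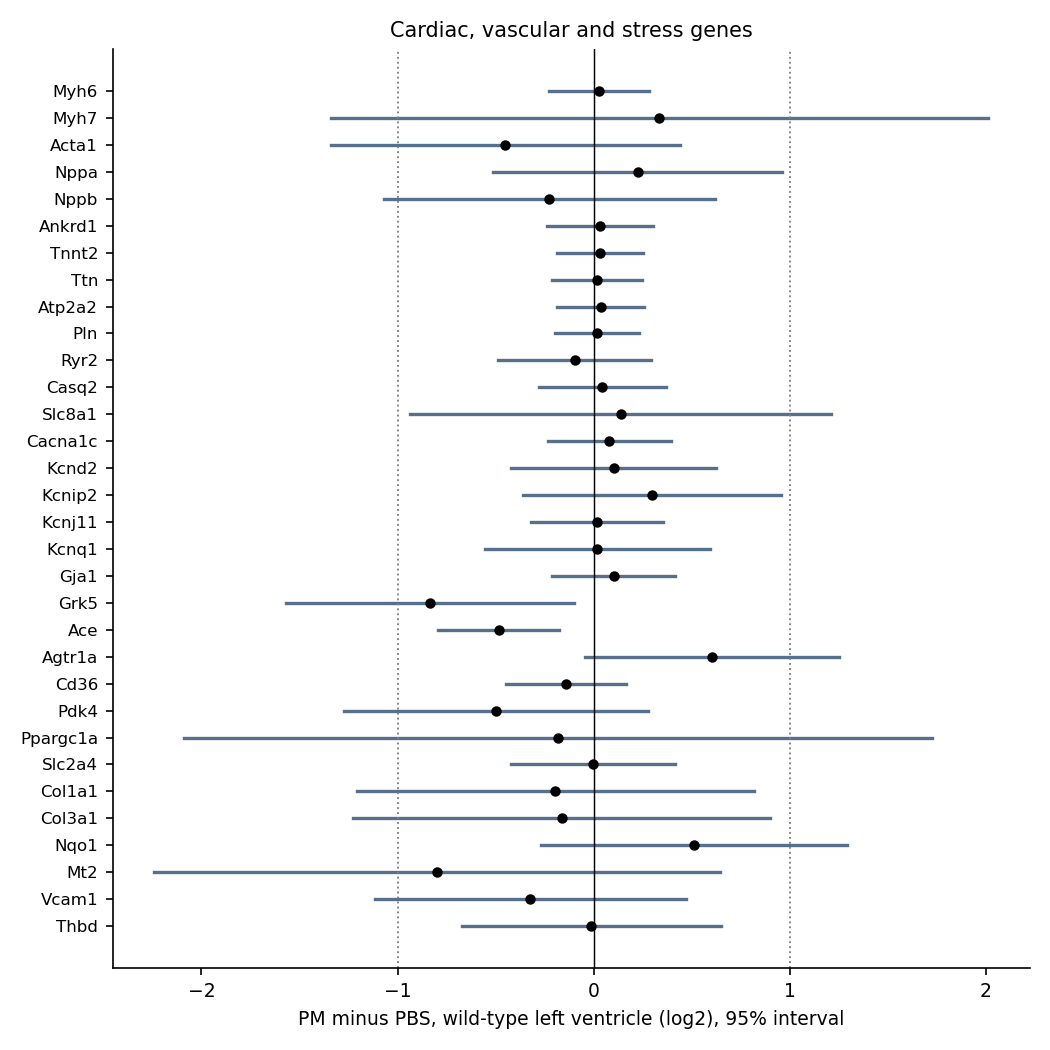
Difference between PM and PBS in wild-type left ventricle (log2, point) with its 95% interval from limma (line) for 32 genes of contraction, calcium, ion channels, signalling, metabolism, matrix and stress. Dotted lines mark 1 log2 unit; Ttn, Atp2a2, Pln and Cacna1c have intervals well inside them, and Myh7, Ppargc1a and Mt2 have intervals that cross them.

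Genes of mitochondrial energy supply differed little between the groups. For all 32 tested genes of oxidative phosphorylation and the citric acid cycle the 95% interval lay within 1 log2 unit, and the differences ran only from -0.03 to 0.14 with a median of 0.04. Atp5b, a catalytic subunit of ATP synthase, was 15.41, 15.49 and 15.45 with PBS and 15.49, 15.50 and 15.42 with PM. Citrate synthase (Cs) differed by 0.07 and Ndufs1 of complex I by 0.03. The 34 genes of fatty acid uptake and oxidation, the main fuel route of the heart, had a median of -0.03. Cd36, the fatty acid transporter, differed by -0.14. Pdk4, which spares glucose when fat is burned, was 14.81, 13.51 and 14.53 against 14.10, 13.75 and 13.51. The mitochondrial regulator Ppargc1a was 11.99, 11.98 and 11.41 against 11.69, 11.57 and 11.56. Its interval of -2.09 to 1.72 was wide although these 6 values lie close together, and the spread behind it is pooled with the dnCREB ventricles. Among 20 genes of glucose use the median was 0.03, with the insulin-regulated transporter Slc2a4 at 0.00.

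Genes that respond to particle-borne chemicals and oxidants were examined next. The aryl hydrocarbon receptor list had 6 tested genes, with a median of 0.08. Cyp1a1, the classical target of that receptor, was below the filter, at 3.16, 3.19 and 3.21 in the PM hearts. The PBS hearts had 7.49, 3.17 and 3.21, so the only raised value was in a PBS heart, the first replicate. Nqo1, which both this receptor and NRF2 can induce, was 9.58, 9.28 and 10.15 with PBS and 10.37, 9.55 and 10.63 with PM. Hmox1, heme oxygenase 1, lay between 3.08 and 3.38 on all 6 arrays and below the filter. The oxidative stress and metal list (23 tested) had a median of -0.05 and no gene at an unadjusted p under 0.05. Its largest difference was in the metallothionein Mt2, at 12.05, 9.55 and 10.51 against 9.85, 9.04 and 10.82, where again the first PBS heart was highest. Catalase (Cat) differed by 0.01 and superoxide dismutase 2 (Sod2) by 0.05.

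Inflammatory lists had medians well below that of all genes. The acute phase and complement list had a median difference of -0.82 over 11 tested genes, 10 of them below 0, and the macrophage and monocyte markers one of -0.65 over 15, with 14 below 0. No member passed the adjusted test. The lysozyme genes Lyz1 and Lyz2 had unadjusted p-values of 0.0203 and 0.0291 (limma), which makes 2 of 15, beside 0.402% of all genes on that side. Whether the probe sets of these related genes read separate RNAs was not tested, so they may not count as 2 separate readings. These medians moved with 1 heart. All 15 tested macrophage markers had their highest value of the 6 arrays in the first PBS replicate, as did 9 of the 11 acute phase and complement genes, whereas 16.2% of all genes did.

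Among single genes, Serpina3n, an acute phase serine protease inhibitor, was 11.38, 6.30 and 7.88 with PBS and 6.63, 6.25 and 5.92 with PM. Lcn2, an iron-binding acute phase protein, was 10.17, 5.19 and 8.05 against 5.57, 5.82 and 6.83. Socs3, the feedback inhibitor of IL-6 family signalling, was 11.81, 8.69 and 9.21 against 8.67, 9.06 and 8.31. The complement component C1qc was 10.01, 7.75 and 8.06 against 8.59, 7.55 and 6.44. Each of these genes was highest in the first PBS heart, and the third PBS heart was the next highest for Serpina3n, Lcn2 and Socs3. Without the first PBS replicate the median of the acute phase list was -0.26 and that of the macrophage list -0.31, with 8 of 11 and 12 of 15 genes below 0 and none at an unadjusted p under 0.05. The difference without that heart was thus smaller by more than 2 times, with the same sign.

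Single macrophage markers were also highest in that heart. Lyz2 was 13.45, 12.18 and 12.53 with PBS and 12.25, 11.86 and 11.48 with PM. Cd14, a receptor for bacterial lipopolysaccharide, was 5.92, 3.43 and 5.01 against 3.70, 3.44 and 3.45. Csf1r, the receptor on which macrophages depend, was 9.40, 8.55 and 8.98 against 8.79, 8.68 and 8.03. The log2 of the summed signal of the 19 markers on the array was 14.40 to 15.54 with PBS and 13.86 to 14.43 with PM. In a whole-tissue sample fewer macrophages and less RNA per macrophage cannot be told apart.

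Neutrophil genes varied widely within both groups. S100a8 and S100a9 are the calprotectin subunits that fill the neutrophil cytosol. S100a8 was 11.81, 4.39 and 6.56 with PBS and 5.71, 8.41 and 3.09 with PM, and S100a9 was 11.68, 5.74 and 7.67 against 6.40, 8.86 and 4.19. The first PBS heart was highest in both, and among the PM hearts the second. Of the 11 neutrophil markers on the array 3 were tested, with Mmp9 at a difference of 0.01. The median of the 3 was -1.85, and 0.05 without the first PBS replicate. Granule genes such as Mpo and Elane were at most 2.43 on the 6 arrays, and Ngp was 5.25 in the first PBS heart and at most 3.03 in the others.

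Chemokines and cytokines had 13 tested genes of 29 on the array and a median of -0.31, which became 0.04 without the first PBS replicate. Ccl6 was 10.81, 8.67 and 8.62 with PBS and 8.75, 7.91 and 7.10 with PM. Ccl9 was 10.12, 8.47 and 8.54 against 8.09, 7.89 and 7.89, the 1 chemokine whose groups did not overlap. Cxcl1, a neutrophil attractant, ran from 7.08 to 10.28 with PBS and from 5.04 to 9.13 with PM. The classical mediators Il6, Tnf, Il1b and Ccl2 were all below the filter, with Il6 between 2.25 and 2.33. Interferon-responsive genes (15 tested) had a median of -0.23, and -0.20 without the first PBS replicate. Here the third PBS heart was highest for 8 of 15, and without it the median was -0.01. Without the first PM replicate it was -0.06. Irgm1, an interferon-induced GTPase, was 8.59, 8.57 and 9.03 against 8.05, 8.30 and 8.59, with an unadjusted p of 0.0416.

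**Figure D3:**
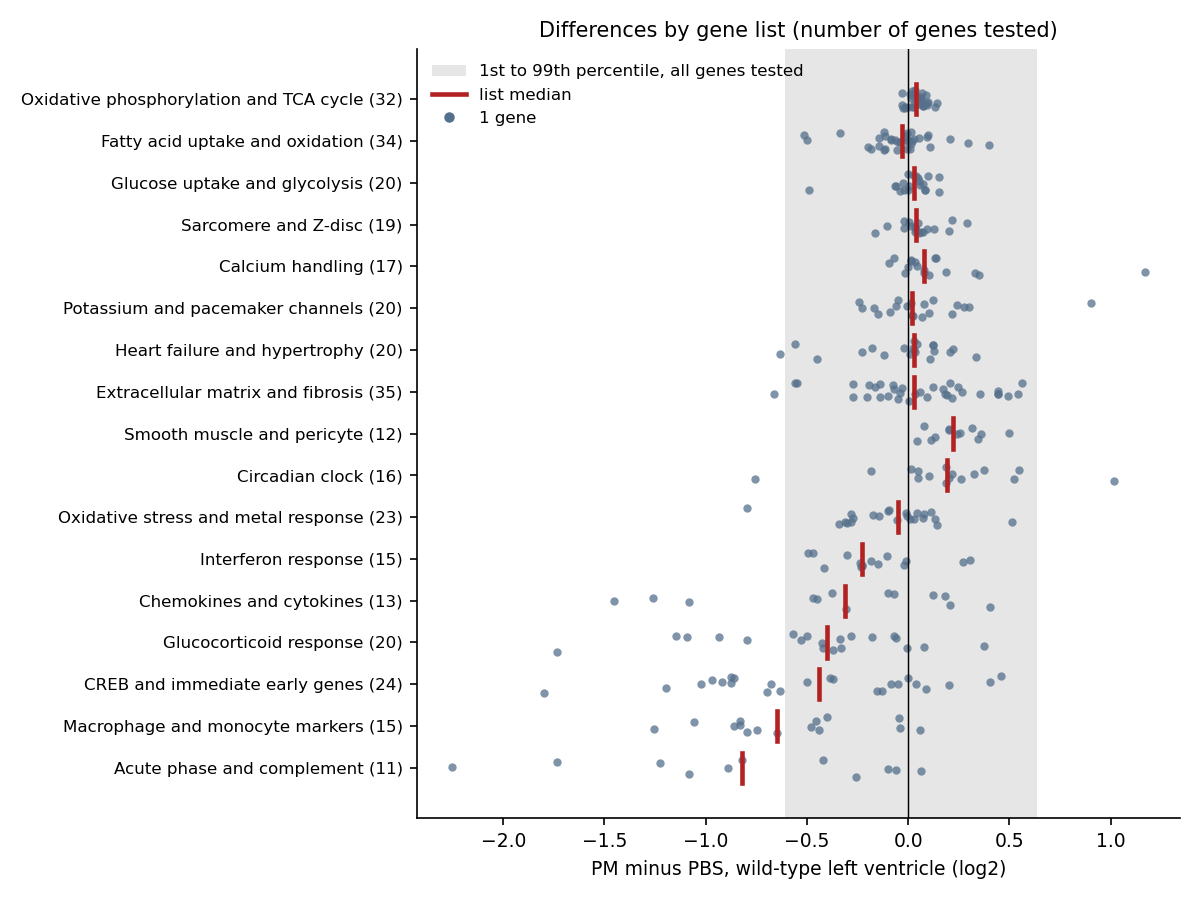
Difference between PM and PBS in wild-type left ventricle (log2) for each tested gene of 17 lists (points, the number of genes in brackets), with the list medians in red and the span from the 1st to the 99th percentile of all genes, -0.61 to 0.64, in grey. Medians of the metabolic and contractile lists lie near 0.04, the median of all genes, and those of the macrophage and the acute phase lists are -0.65 and -0.82.

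Glucocorticoid-induced genes, a readout of stress hormone action, were also high in the first PBS heart. Of 20 tested, 18 were below 0, the median was -0.40, and 13 had their highest value in the first PBS heart. Fkbp5, a chaperone of the glucocorticoid receptor, was 10.67, 8.28 and 8.19 with PBS and 8.16, 6.94 and 8.61 with PM. Cebpd was 11.99, 8.97 and 10.27 against 8.82, 9.12 and 10.01, and Cdkn1a was 11.28, 8.22 and 9.41 against 8.22, 8.26 and 9.63. Without the first PBS replicate the median of the list was -0.14. Tsc22d3 and Klf9, further targets of the receptor, differed by -0.18 and 0.08 with all arrays in.

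Inducible heat shock genes were high in the same heart. Hspa1a, an inducible HSP70, was 7.94 in the first PBS heart and between 3.32 and 3.52 in the other 5 hearts. Hspa1b was 12.54, 9.27 and 7.67 with PBS and 9.18, 9.24 and 8.67 with PM. Of 26 tested heat shock and unfolded protein genes 18 were highest in the first PBS heart, yet the list median was -0.01, and 0.06 without it. The constitutive Hspa8, and Hspa5 of the endoplasmic reticulum, differed by -0.04 and 0.07.

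The immediate early genes, which neurons, muscle and endothelium switch on within minutes of a stimulus and of which several are direct CREB targets, were listed together with CREB, its relatives and its coactivators. The median was -0.44 over the 24 tested genes of this list, 18 of them below 0. At an unadjusted p under 0.05 there were 3 lower (0.402% of all genes were) and 1 higher (1.06% of all genes), and none passed the adjustment. Zfp36, which destabilises inflammatory messenger RNAs, was 11.32, 11.09 and 11.89 with PBS and 10.40, 10.95 and 10.36 with PM. Btg2, an antiproliferative gene, was 10.98, 10.16 and 11.12 against 9.39, 9.45 and 9.82. Junb was 9.94, 9.03 and 8.95 against 8.69, 8.90 and 7.71. In all 3 the groups lay apart, and Jun was also apart, at 12.28 to 12.65 with PBS and 12.03 to 12.11 with PM. That makes 4 of 24, beside 1.98% of all genes.

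Several wide differences in this list went with the third PBS heart. Egr3 was 3.31, 5.14 and 8.58 with PBS and 3.77, 3.83 and 4.03 with PM. Fos was 9.95, 10.55 and 12.16 against 8.96, 10.68 and 9.95, Atf3 was 5.90, 6.12 and 8.97 against 6.03, 6.15 and 6.78, and Nr4a1 was 9.77, 11.44 and 12.26 against 9.64, 10.29 and 10.63. Of the 24 genes, 12 were highest in that heart, against 11.3% of all genes. Without it the list median was -0.21, and without the first PBS replicate it was -0.52. Neither CREB nor its coactivator CBP passed the test. Creb1 was 8.83, 9.15 and 8.49 against 9.67, 8.89 and 9.28, and Crebbp differed by 0.04. The coactivator Crtc3, the 1 higher gene, had the second smallest unadjusted p of all named genes, 0.0012, with a small difference of 0.40 ± 0.09 (SE) from 6.93, 7.10 and 6.93 to 7.44, 7.41 and 7.31 (limma adjusted p = 1.00).

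Clock genes also set the third PBS heart apart. Dbp, a clock output gene, was 10.48, 11.39 and 8.44 with PBS and 12.20, 10.84 and 10.32 with PM. Per2 was 7.20, 7.19 and 4.16 against 7.88, 6.17 and 6.13, and Arntl, which peaks at the opposite phase, was 7.82, 6.88 and 8.82 against 7.43, 7.82 and 8.32. The third PBS heart was thus lowest in Dbp and Per2 and highest in Arntl. Times of day of the harvests are not given in the sources used here. The 16 clock genes tested had a median of 0.19, none with an unadjusted p under 0.05, and one of 0.03 without the first PM replicate.

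**Figure D4:**
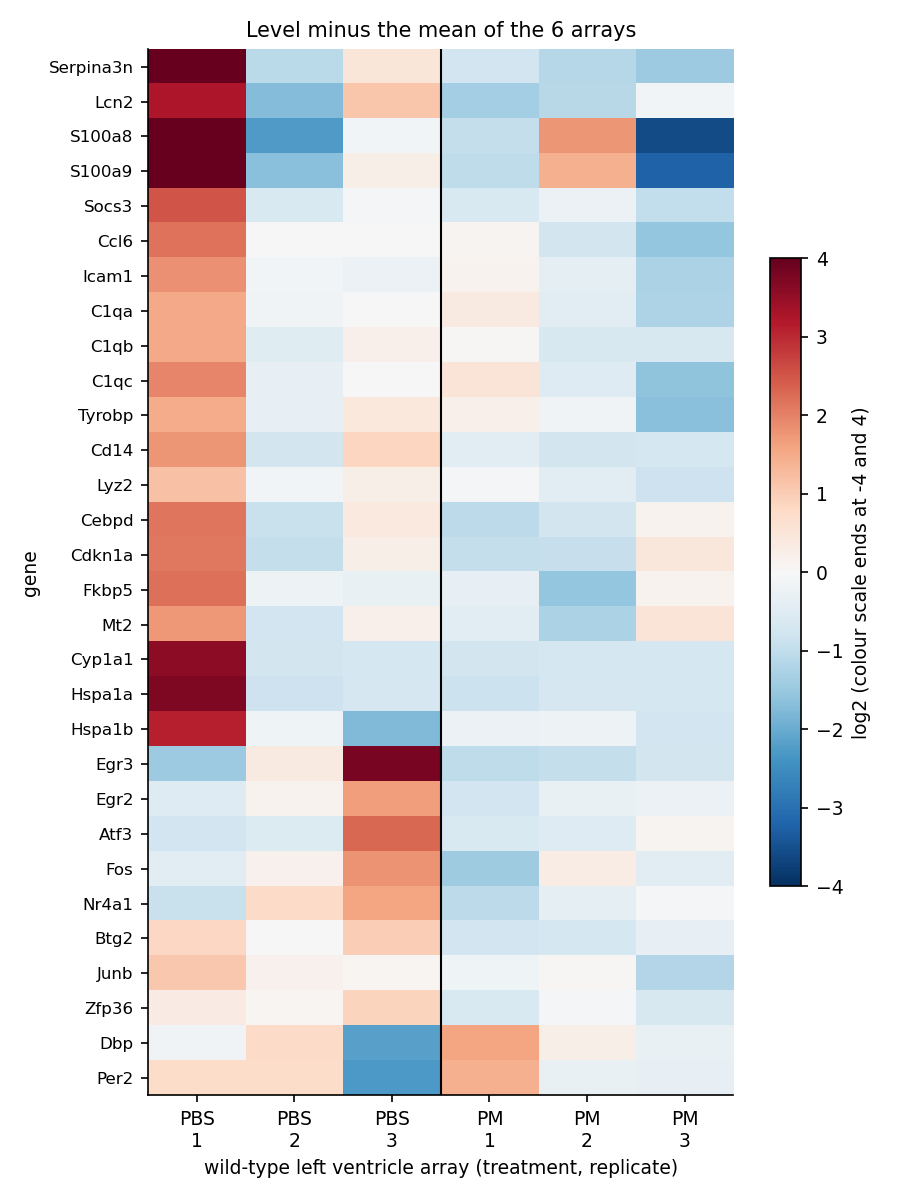
Level of 30 genes on each of the 6 wild-type left ventricle arrays, as the difference from the mean of the 6 (log2, red above and blue below, colour scale from -4 to 4). The first PBS replicate is high in acute phase, macrophage, glucocorticoid-induced and heat shock genes, and the third PBS replicate in Egr3, Egr2, Atf3, Fos and Nr4a1.

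No gene of connective tissue, vessels or clotting passed the test. The matrix and fibrosis list had a median of 0.03 over 35 tested genes and none at an unadjusted p under 0.05. For 14 of the 35 the interval lay within 1 log2 unit, so larger changes stay possible for many. Fibrillar collagen Col1a1 was 9.14, 8.99 and 8.86 with PBS and 8.96, 8.91 and 8.54 with PM, and Col3a1 was 13.40, 13.20 and 12.65 against 13.29, 12.87 and 12.60. The matrix protein periostin (Postn) differed by 0.44 with an interval of -0.63 to 1.51. Among 20 endothelial genes the median was 0.13, and 9 had an interval within 1 log2 unit. Icam1, a leukocyte adhesion molecule, was 10.57, 8.65 and 8.51 against 8.91, 8.39 and 7.50, and Vcam1 differed by -0.32. Selp and Sele were below the filter. The 13 coagulation and fibrinolysis genes tested had a median of -0.01, with thrombomodulin (Thbd), an anticoagulant receptor, at -0.01 and tissue factor (F3), which starts clotting, at 0.11.

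All 12 tested smooth muscle and pericyte genes were above 0, by 0.04 to 0.50, with a median of 0.22. None had an unadjusted p under 0.05 and none had groups that lay apart. Notch3, the receptor of mural cells, was 9.72, 10.70 and 10.45 with PBS and 10.96, 10.58 and 10.83 with PM. The log2 of their summed signal was 15.75 to 16.05 with PBS and 15.91 to 16.11 with PM, so the groups overlapped. Without the first PBS replicate the median was 0.11, with 10 of 12 above 0.

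Single markers of further cell types were high in the first PM heart. There Adipoq, a hormone made by fat cells, was 6.36, against at most 2.97 in the others, and Fasn was 8.43, against 5.41 to 6.26 in the other 5. Upk3b, a mesothelial gene, was 6.03 in the first PM heart, and the immunoglobulin chain Ighm was 10.30, against at most 7.37 elsewhere. Of the 4 lymphocyte genes tested, 1 was highest in that heart. Cd4 and Cd8a, of T cells, were 6.26 and 5.13 there, their lowest values of the 6 arrays. The mesothelial marker Msln and the hemoglobin gene Hba-a1 were below the filter. The 2 erythroid genes tested were Alas2 and Bpgm. Alas2 was 4.69, 7.81 and 5.35 with PBS and 5.74, 8.83 and 7.47 with PM, so the groups overlapped, and Bpgm differed by 0.12. The 9 adipocyte genes tested had a median of -0.06, and Car3, abundant in fat, ranged from 5.69 to 12.11 over the 6 hearts. Of these 9 genes 4 had their highest value in the first PM heart, as did 3615 of all 9962 genes. The fat cell genes Cidec, Lep and Retn, below the filter, were 2.59, 2.01 and 1.96 there. Of 14 fast skeletal muscle genes 9 were below the filter, with Mylpf between 2.55 and 2.60, and 5 passed it (Casq1, Ckm, Mybpc2, Myh4 and Myl1). Of these, Myl1 was 13.01, 13.25 and 14.15 with PBS and 11.12, 13.10 and 12.01 with PM, with an unadjusted p of 0.017. The part of these cells in the differences above was not tested.

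The same comparison was made in dnCREB ventricles. There none of the 9962 genes passed (0%), with 490 at an unadjusted p under 0.05. The difference of the PM change between the genotypes was significant for none (0%), with 361 at an unadjusted p under 0.05 (limma for both). For Aqp4 the PM change was 0.08 in dnCREB and -1.94 in wild type, a difference of 2.02 with an interval of 1.40 to 2.64 and an adjusted p of 0.238. Without the third wild-type PBS replicate this difference was the 1 that passed. Without the third dnCREB PM replicate 3 other genes did, and without the second 1 other. With levels of at most 2.70 the dnCREB hearts were already near the floor. Of the 6 dnCREB hearts 5 had Y-linked expression (Eif2s3y between 10.26 and 11.29) and 1 had Xist at 13.71, whereas all wild-type hearts had Xist, so sex moved with genotype. A fit with sex-chromosome expression as a covariate gave the same 3 calls as leaving out the third dnCREB PM heart, the 1 with Xist. Between the genotypes, sex and genotype cannot be told apart. The list medians were -0.65 in wild type and 0.31 in dnCREB for macrophage markers, -0.40 and 0.39 for glucocorticoid-induced genes, and -0.23 and -0.21 for interferon-responsive genes. These medians were not tested against each other, and the wild-type ones move with single hearts, as given above.

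In the lung of wild-type mice 1643 of 12318 genes (13.3%) changed with PM at an adjusted p under 0.05 in the fit of all 24 arrays (limma). In a fit of the same arrays the left ventricle had 0 of 9962, with 171 at an unadjusted p under 0.05. The difference of the PM change between the tissues passed for 122 genes (0.99%), 19 with the heart's change above that of the lung and 103 below. When each array was centred on its median the split was 68 above and 59 below, and with quantile normalization it was 32 and 60. Of the 122 genes, 38 were expressed above the filter in the ventricle. The count was 315, 373, 72 and 305 without the third PBS, the first PM, the second PM and the third PM lung, and 50 to 65 without any 1 of the 6 ventricles. In the lung the PBS arrays had Y-linked expression while 2 of the 3 PM arrays had Xist at 12.37 and 12.30, and 2 PM arrays held skeletal muscle RNA (Mylpf 9.02 and 9.05, against 3.08 in the other), so sex and tissue admixture moved with treatment there. Their part in these differences was not tested.

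Among complement genes, C1qb, a subunit of the complement starter C1q made by tissue macrophages, was 9.06, 8.69 and 8.04 in PBS lungs and 10.84, 11.15 and 10.94 in PM lungs. In the ventricle it was 14.06, 12.05 and 12.72 with PBS and 12.57, 11.90 and 11.89 with PM. The change was 2.38 in the lung and -0.82 in the ventricle, and their difference was -3.20 (limma adjusted p = 0.0148). C1qc changed by 2.65 and -1.08 (adjusted p = 0.0306). The first PBS heart was the highest of its tissue in both, and without it the ventricle's differences were -0.26 and -0.38. Frzb changed by 1.83 in the lung and -1.06 in the ventricle (adjusted p = 0.0161), and Irgm1 by 1.36 and -0.42 (adjusted p = 0.0066). For C1qb, C1qc, Frzb and Irgm1 the ventricle's share of the difference was the smaller one.

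In the other direction, Sema3c, a secreted guidance protein, was 13.56, 13.61 and 13.98 in PBS lungs and 11.01, 9.61 and 10.90 in PM lungs, while in the ventricle it stayed between 8.67 and 9.50. The difference between the tissues was 3.34 (limma adjusted p = 0.0102). Slc16a4 changed by -1.43 in the lung and by 1.32 in the ventricle (adjusted p = 0.0473). Fgf13, which binds sodium channels and is abundant in heart muscle, went the way of C1qb instead, with the ventricle's change below the lung's. It lay between 11.98 and 12.70 in the ventricle and changed by 2.03 in the lung. The difference between the tissues was -1.78 (limma adjusted p = 0.0287). The remaining genes among the 5 largest differences in each direction, Ighg3, Fcgr1, Mmp12, Calcb, Dnah12 and Fendrr, were below the filter in the ventricle. Their values there were at most 3.65, so their difference comes from the lung values. For Aqp4 the difference between the tissues did not pass (-1.29, adjusted p = 0.369), with 9.04, 6.08 and 6.63 in PBS lungs and 7.16, 6.00 and 6.64 in PM lungs.

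**Figure D5:**
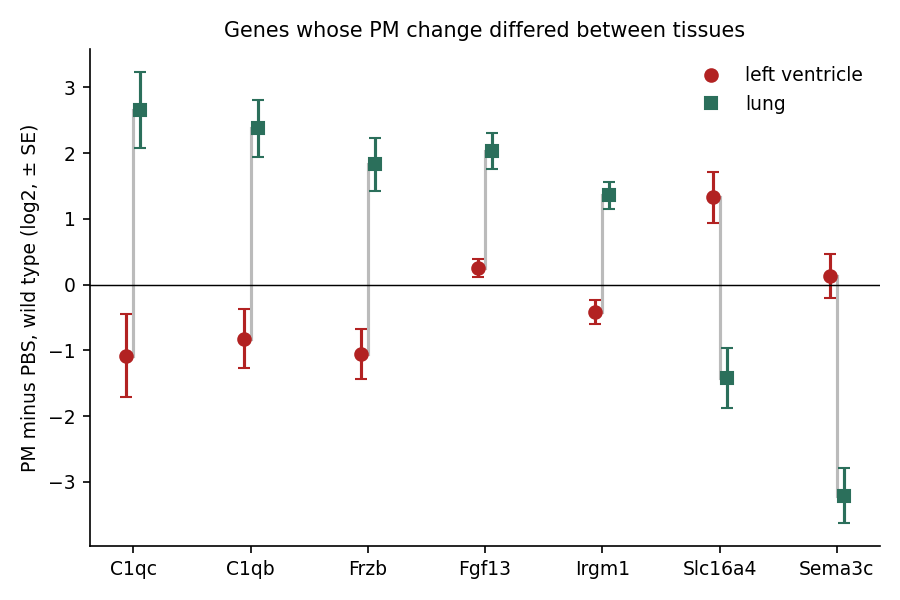
Change with PM in wild-type left ventricle (circles) and wild-type lung (squares), log2 with SE from limma, for 7 genes whose change differed between the tissues at an adjusted p under 0.05 and that were expressed in the ventricle. C1qb changed by -0.82 in the ventricle and 2.38 in the lung, and Sema3c by 0.13 and -3.21.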

How the data were processed

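The 6 wild-type left ventricle arrays were compared within a series of 24 Affymetrix arrays. The authors deposited 1 log2 value for each probe set and array, computed with GCRMA per the submitters' processing notes, which give no version. GCRMA corrects background by probe sequence and normalizes between arrays. Heart and lung medians per array (3.25 to 3.37 and 4.09 to 4.19) lie apart, so tissues were set against each other only as changes. Of 45037 probe sets, 34945 had 1 gene symbol, 932 several and 9160 none; genes are those with 1 symbol, read from the brightest of their probe sets.

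limma 3.58.1 in R 4.3.3 fitted 4 group means over the 12 heart arrays, and 8 over all 24 for the tissue difference. Genes needed log2 above 4 on at least 3 arrays, and adjusted p under 0.05 was the threshold. The p-values rest on the spread among the 3 arrays of each group, pooled over all groups of a fit and moderated across genes. The script was tested on simulated data. Genes were named as: each called gene, the 10 largest differences in each direction (unadjusted p under 0.05, arrays apart, higher mean above 5), up to 3 members with the smallest p and the first 4 of each list, all aquaporins, and the 5 largest tissue differences in each direction. Further list members are given as values chosen after they were seen. The members and lists were chosen with earlier results of these data known. Alternatives covered probe sets, filter, scaling, weights, variance model, block and single arrays.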

Additional observations from a re-analysis of the deposited data

Results flagged for a closer look

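The change with PM differed between wild-type left ventricle and wild-type lung for 7 of the genes described, by a test of the difference itself (limma, 24 arrays). The ventricle's change minus the lung's was -3.73 for C1qc, -3.20 for C1qb, -2.89 for Frzb, -1.78 for Fgf13 and -1.78 for Irgm1, and it was 2.75 for Slc16a4 and 3.34 for Sema3c. The lung arrays differ in sex-linked and skeletal muscle RNA between PBS and PM, as given above.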

How the results depend on the processing

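The count of 1 gene called in wild-type ventricle was 2 with every probe set tested, and 0 with no filter, on the 6 arrays alone, in a joint fit of all 24 arrays and with the replicate block. It ran from 0 to 3 when single arrays were left out. It stayed at 1, with Aqp4, at a filter of 6, with quantile normalization, median centring, array weights and a variance trend. The adjusted p of Aqp4 was 0.0639 with no filter and 0.0794 with the replicate block. Replicate numbers were not taken as pairs, since same-numbered PBS and PM hearts deviated together with correlations of 0.096, 0.04 and 0.311. The count of 0 for the difference between genotypes was 3 when sex-chromosome expression was a covariate (D3Ertd751e, Itga8 and Slc24a2), 0 with the block, and ran from 0 to 3 without single arrays. The count of 122 for the tissues was 206 with all probe sets, 68 at a filter of 6, 341 with array weights and 103 with the block, and ran from 50 to 373 without single arrays. The difference of Aqp4 in wild-type ventricle stayed below 0 in every alternative. Its PM and PBS values do not overlap, so leaving out a single array could not change that sign. For the genes called between the tissues, signs were not compared across the alternatives. Scaling moved the median of all genes from 0.04 to -0.00 (quantile) or 0.06 (centring).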
